A study of Mus musculus with 2 samples.

Results

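The genes described here carry ascorbate (vitamin C) into cells, make it, or pass its electrons across the membrane of the chromaffin granule. They are Slc23a2 and Slc23a1 (transporters), Gulo and Rgn (synthesis) and Cyb561 (cytochrome b561), 5 of the 43346 Ensembl genes in the tables, chosen by name through Ensembl gene identifiers. The tissue was adrenal gland from a female mouse of strain C57BL/6J, an adult 10 weeks old, and its polyadenylated RNA was read in 2 libraries that the labels call technical replicates of 1 biological sample. The labels date replicate 2 to 2015 and say that it did not belong to the study's first publication. There is no treated or control group, so the libraries can be compared with each other, and nothing here measures the spread between animals. In bulk tissue, fewer cells of a type and less RNA per cell cannot be told apart.

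The rounded expected counts summed to 17376673 in replicate 2 and to 28267664 in replicate 1. Mitochondrial genes and their nuclear copies took 15.3% of the counts in replicate 2 and 53.1% in replicate 1. TPM is a level per transcript length that has the same sum in every library. For the 5 genes it is therefore also given after rescaling over the other, nuclear, genes. Levels of other genes and sums over lists are as deposited unless stated. Cortex markers summed to 35560 TPM in replicate 2 and 7301 TPM in replicate 1 over 7 genes, all detected, and medulla markers to 2714 and 65.95 TPM over 7 genes. Between the libraries, 36.5% of 14358 tested genes were called higher in replicate 2 and 27.8% lower, and the ratio followed the GC content of the transcripts, as described below.

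Ascorbate is an electron donor that the adrenal gland holds at high concentration, in cortex and medulla. SLC23 proteins bring it into cells together with sodium, and its oxidised form, dehydroascorbate, enters through glucose transporters of the SLC2A family and is reduced again inside. Most mammals make ascorbate in liver from glucuronate, with regucalcin (Rgn) closing the lactone ring and L-gulonolactone oxidase (Gulo) making the final step, which humans have lost. In chromaffin granules ascorbate gives electrons to dopamine β-hydroxylase, and cytochrome b561 moves electrons from the cytosol through the granule membrane to restore it.

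The GC content of these genes matters for every comparison of the libraries below, so the first 75 coding bases of the main transcript of each gene with counts are shown, from GENCODE M21 on GRCm38, 5′ to 3′, with G and C in capitals. The Slc23a2 stretch lies at chr2:132101505-132101579 on the minus strand, the Rgn stretch at chrX:20550379-20550453 on the plus strand and the Cyb561 stretch at chr11:105937753-105937827 on the minus strand, each inside 1 exon. The Gulo stretch spans an intron between chr14:66008069 and 66009047 on the minus strand.
Cyb561-201: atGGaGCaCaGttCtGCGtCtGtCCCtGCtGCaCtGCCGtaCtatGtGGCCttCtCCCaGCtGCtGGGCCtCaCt
Slc23a2-201: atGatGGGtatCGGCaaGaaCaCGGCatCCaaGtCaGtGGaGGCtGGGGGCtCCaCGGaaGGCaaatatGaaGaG
Gulo-201: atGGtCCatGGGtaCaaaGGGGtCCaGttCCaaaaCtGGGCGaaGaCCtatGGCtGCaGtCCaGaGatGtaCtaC
Rgn-201: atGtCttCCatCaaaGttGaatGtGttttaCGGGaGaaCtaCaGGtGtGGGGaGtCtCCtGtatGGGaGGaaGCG
The G and C share of the stretch was 60% (45 bases) for Cyb561, 54.7% for Slc23a2, 52% for Gulo and 48% for Rgn. Over the whole coding part it was 56.4% for Cyb561, 55.5% for Gulo, 52.3% for Slc23a2 and 46.0% for Rgn. Over all annotated transcripts of the gene, untranslated parts included, the order was the same, with Cyb561 at 57.8%, Gulo at 53.8%, Slc23a2 at 49.5% and Rgn at 41.7%.

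Slc23a2, which encodes the sodium-dependent ascorbate transporter SVCT2, was the ascorbate carrier found in both libraries at a substantial level, and Slc23a1, which encodes the epithelial carrier SVCT1, had 0 counts in both. Slc23a2 (chr2:132052496-132145108, minus strand) stood at 77.7 TPM in replicate 2 and 23.1 TPM in replicate 1, from 5805 and 4673 counts. After rescaling over nuclear genes it stood at 126 TPM in replicate 2 and 132 TPM in replicate 1. It ranked 1429 in replicate 2 and 1570 in replicate 1 among nuclear protein-coding genes, above 93.3% and 92.7% of them. The deposited values thus lay far apart and the rescaled ones close together. Scaled counts of Slc23a2 were 0.920 times as high in replicate 2 as in replicate 1 (95% exact interval 0.885 to 0.956; exact binomial test, adjusted p = 2.76e-05), a difference beyond counting error but under the 2-fold minimum, so the gene was not called. With total counts as library sizes Slc23a2 was called higher, at a log2 ratio of 1.02 (exact binomial test, adjusted p = 1.88e-281), and with the length trend removed its ratio also turned positive, at 0.36.

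Transcript Slc23a2-201, the full-length coding form of 6364 bases, held 99.6% of the Slc23a2 counts in replicate 2 (95% exact interval 99.4 to 99.7) and 99.8% in replicate 1 (99.6 to 99.9). Its deposited share of TPM was 96.5% in replicate 2 and 98.4% in replicate 1, the remainder going to short forms with 0 to 15.74 counts each. The RefSeq promoter at the annotated start of Slc23a2-201 (GRCm38.p6, chr2:132145059-132145358, minus strand, 250 bases before the start and 50 after) is shown. This transcript holds nearly all counts of the leading transporter. The promoter is 1 of 2 given for the gene, and use of either start was not measured. Capitals mark GGGCGG, the core of the GC box, on either strand.
Slc23a2 promoter: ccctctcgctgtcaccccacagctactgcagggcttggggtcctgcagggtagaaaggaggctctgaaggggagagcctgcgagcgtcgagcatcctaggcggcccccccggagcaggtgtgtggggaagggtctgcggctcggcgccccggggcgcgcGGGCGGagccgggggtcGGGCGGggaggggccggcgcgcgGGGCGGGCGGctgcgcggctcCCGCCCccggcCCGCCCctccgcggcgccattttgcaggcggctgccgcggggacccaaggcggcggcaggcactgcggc
The window holds 6 matches to GGGCGG, 2 of them overlapping, and 35.7% of 32851 promoters in the table hold at least 1. It has 37 CG dinucleotides, against a median of 7 over all promoters, and a GC content of 78.3%, against a median of 52.7%. Neither TATAAA, present in 13.6% of promoters, nor AAGGTCA, the binding sequence of steroidogenic factor 1, present in 4.72%, was found in it on either strand. Slc23a2 overlaps the antisense gene Gm14051 at its start and the pseudogene Gm14052 in its body, and both had 0 counts in both libraries.

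For Slc23a1 (chr18:35614604-35627244, minus strand), 0 of the counts in either library leave a limit of 3 counts, which is 0.184 TPM in replicate 2 and 0.0691 TPM in replicate 1 at the deposited effective length. Slc23a2 was therefore at least 422-fold higher than Slc23a1 in replicate 2 and at least 334-fold in replicate 1. The deposited posterior interval of Slc23a1 reached up to 1.13 TPM in replicate 2 and 0.447 TPM in replicate 1, which would bring these limits to 68.7-fold and 51.7-fold. Among protein-coding genes, 24.6% of 21474 had 0 counts in both libraries. Paip2, a regulator of translation on the opposite strand, overlaps Slc23a1 over 2584 bases (35614604 to 35617187) and had 2914 counts in replicate 2 and 6025 in replicate 1. Slc23a1 had none.

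**Figure D1:**
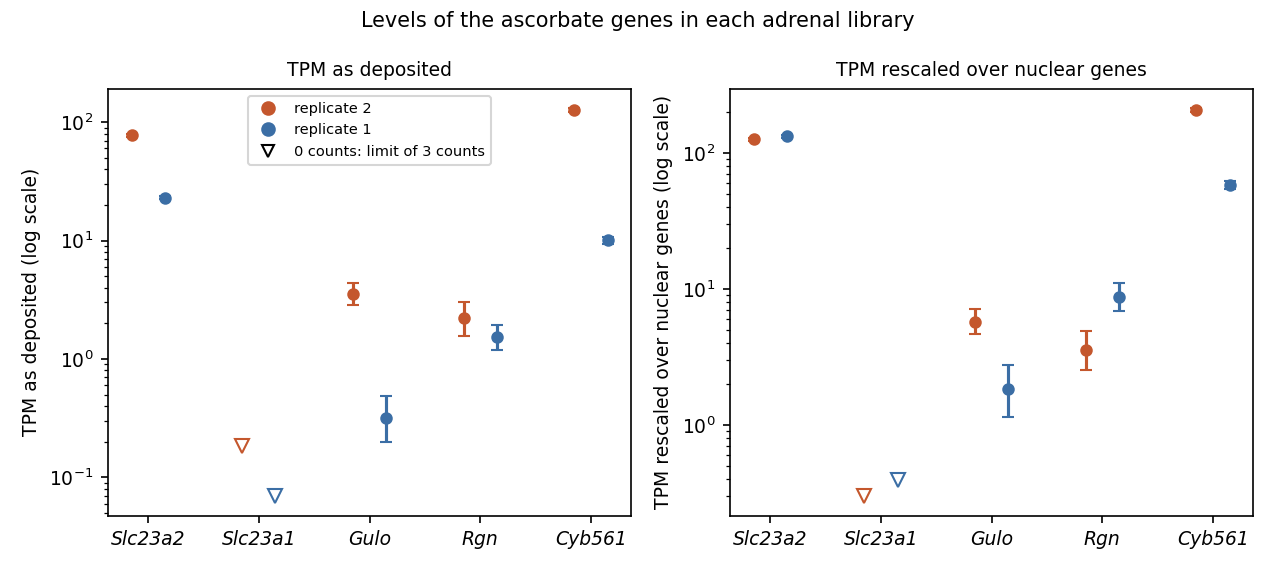
TPM of the 5 genes in replicate 2 (orange, left of each pair) and replicate 1 (blue) on log axes, as deposited (left panel) and rescaled over nuclear genes (right panel); bars are 95% Poisson intervals of the counts, and open triangles mark the limit that 0 counts allow. Slc23a2 stands at 77.7 and 23.1 TPM as deposited and at 126 and 132 TPM when rescaled, while Cyb561 stays apart in both panels.

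The genes of ascorbate synthesis were near the detection limit, set at 1 TPM in both libraries. Gulo (chr14:65986786-66009207, minus strand) stood at 3.55 TPM in replicate 2 and 0.32 TPM in replicate 1, from 92 counts (95% Poisson interval 74.2 to 113) and 22 counts (13.8 to 33.3). It was thus below the minimum in replicate 1 as deposited. Rescaled over nuclear genes, Gulo stood at 5.76 TPM in replicate 2 and 1.83 TPM in replicate 1, above the minimum in both. Rgn (chrX:20549787-20562089, plus strand) stood at 2.21 TPM in replicate 2 and 1.53 TPM in replicate 1, from 39 counts (27.7 to 53.3) and 72 counts (56.3 to 90.7). Its rescaled levels were 3.59 TPM in replicate 2 and 8.75 TPM in replicate 1. Gulo and Rgn each have 1 transcript in the tables, so no division between forms entered these values. The order of the pair depended on the library: Rgn was at 0.623 times the TPM of Gulo in replicate 2 and at 4.78 times in replicate 1.

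Genes that mark liver and kidney, the tissues with the highest synthesis or reabsorption of ascorbate, were low with 1 exception, and their part in the Gulo and Rgn counts was not tested. Of 6 liver markers, Alb stood at 0.99 TPM in replicate 2 and 0.19 TPM in replicate 1, Cps1 at 0.03 and 0 TPM, Fgb at 0.02 and 0.01 TPM and Apoa1 at 0.47 and 0 TPM. Ahsg stood at 9.11 TPM in replicate 2, above Gulo (3.55 TPM) and Rgn (2.21 TPM). In replicate 1 Ahsg was at 0.77 TPM, between Gulo (0.32 TPM) and Rgn (1.53 TPM). The exception, Cyp2e1, a cytochrome P450 of liver, stood at 286 TPM in replicate 2 and 111 TPM in replicate 1 and made up most of the list's sums of 296.7 and 111.5 TPM. Kidney markers summed to 0.38 TPM in replicate 2 and 0.15 TPM in replicate 1, with Umod, Slc34a1, Miox and Aqp2 at 0 in both.

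Cyb561, the electron shuttle, had the highest level of the 5 genes in replicate 2 and the second highest in replicate 1. It lies at chr11:105933702-105953336 on the minus strand and stood at 126.6 TPM in replicate 2 and 10.1 TPM in replicate 1, from 3391 and 844 counts. After rescaling over nuclear genes it stood at 205 TPM in replicate 2 and 57.9 TPM in replicate 1. Its rank was 829 in replicate 2 and 3184 in replicate 1, the largest move in rank toward replicate 2 among the 5 genes. Over both libraries Cyb561 averaged 68.3 ± 82.3 TPM and Slc23a2 50.4 ± 38.6 TPM (SD, n = 2), and Gulo 1.94 ± 2.28 TPM and Rgn 1.87 ± 0.481 TPM. These SDs hold the difference between the libraries, so the means do not rank the genes. Cyb561 stood above Slc23a2 in replicate 2 (126.6 against 77.7 TPM) and below it in replicate 1 (10.1 against 23.1 TPM). Gulo likewise stood above Rgn in replicate 2 and below it in replicate 1. Slc23a2, Rgn and Cyb561 were detected, 3 of 5, where 40.9% of protein-coding genes reached 1 TPM in both libraries (21% of all Ensembl genes).

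The same transcript of Cyb561 led in both libraries, with a smaller share in replicate 2. Cyb561-201, the coding form of 2741 bases and 6 exons, held 91.8% of the counts in replicate 2 (95% exact interval 90.9 to 92.7) and 99.3% in replicate 1 (98.5 to 99.7). Its deposited share of TPM was 77.3% in replicate 2 and 97.7% in replicate 1. Cyb561-204, an incomplete form that inserts an exon of 279 bases (chr11:105940100-105940378) between the first exon and the exon with the start codon, took 219 counts in replicate 2 and 6.04 in replicate 1. That is 6.46% (5.65 to 7.34) and 0.716% (0.261 to 1.54) of the counts, or 17.8% and 2.31% of TPM, since the form is short. The intervals of both transcripts were apart between the libraries, and the GC content of Cyb561-204 is 62.4%, against 55.8% for Cyb561-201. These intervals cover counting error, not the error of dividing fragments between forms.

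Cyb561-206 took 47.66 counts in replicate 2 (1.41% of the gene; 1.05 to 1.87) and 0 in replicate 1. Its exon 5 begins 44 bases earlier than that of Cyb561-201, and its annotated coding part is 576 bases long, against 750. The forms also differ at exon 1, of 29 annotated bases in Cyb561-206 against 302 in Cyb561-201, and at exon 6, of 484 against 1866. The extra bases of exon 5 (chr11:105935910-105935953, minus strand) are shown in capitals between 15 flanking bases on each side.
Cyb561-206 exon junction: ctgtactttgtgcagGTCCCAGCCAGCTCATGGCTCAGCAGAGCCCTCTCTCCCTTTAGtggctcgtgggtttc
The 95% exact interval of 0 counts in replicate 1 reaches 0.436% of the gene, below the interval in replicate 2. Cyb561-205 and Cyb561-202 had 0 counts in both libraries, and Cyb561-203 and Cyb561-207 had 5.95 and 4.51 counts in replicate 2 and 0 in replicate 1.

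**Figure D2:**
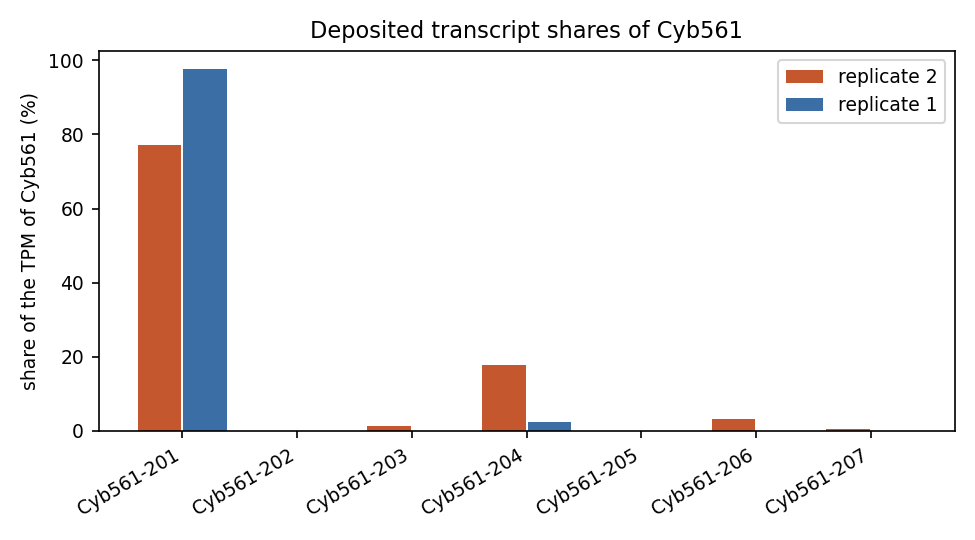
Deposited share of each annotated transcript in the TPM of Cyb561 (percent), in replicate 2 (orange, left bar) and replicate 1 (blue). Cyb561-201 took 77.3% in replicate 2 and 97.7% in replicate 1, and Cyb561-204 took 17.8% and 2.31%.

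Between the libraries, Cyb561 and Gulo, the genes of higher GC content, were called higher in replicate 2, and Rgn, of the lowest GC content, was called lower. Scaled counts of Cyb561 were 2.97-fold higher in replicate 2 (95% exact interval 2.76 to 3.21; exact binomial test, adjusted p = 6.05e-212). Gulo was 3.04-fold higher (1.93 to 5.18; adjusted p = 2.81e-07 by the same exact test), and Rgn was at 0.403 times (0.264 to 0.600; adjusted p = 3.97e-06, same exact test). Of the 4 genes tested, 2 were thus called higher and 1 lower, beside 36.5% and 27.8% of all tested genes (64.3% in either direction), so 3 called of 4 is near the background. With total counts as library sizes, 7776 genes were higher and 569 lower in place of 5235 and 3991, the median log2 ratio of all genes moved to 1.24 in place of 0.10, and Rgn went to -0.17 on the log2 scale and was no longer called, so that 3 of the 4 genes were higher and none was lower. The test compares the reads of these libraries, not animals.

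**Figure D3:**
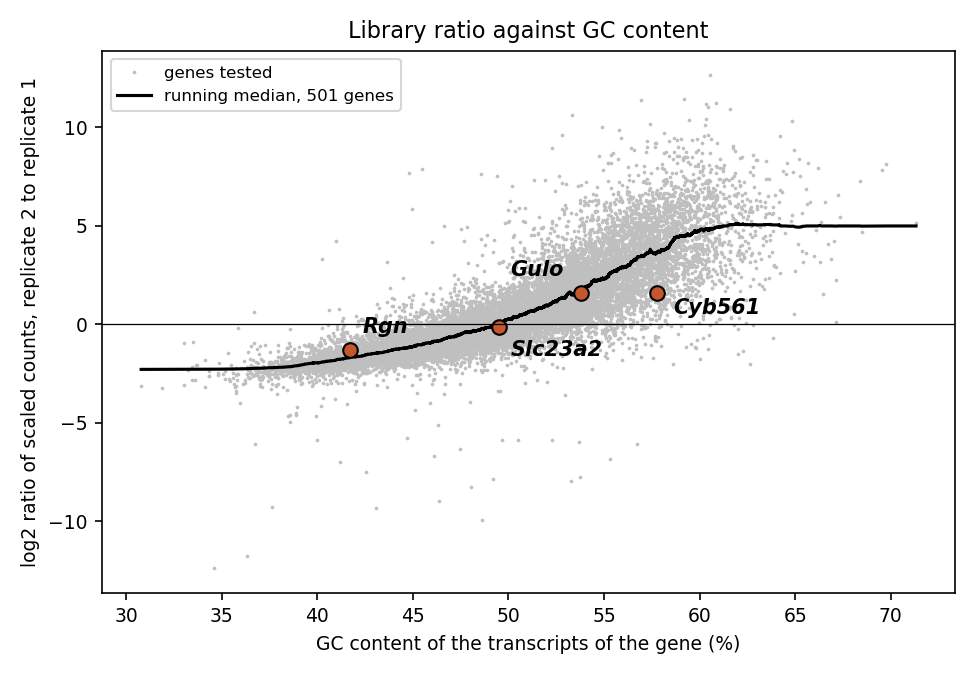
Log2 ratio of scaled counts, replicate 2 to replicate 1, against the GC content (percent) of the annotated transcripts of each tested gene (grey), with the running median (black line) and the 4 tested ascorbate genes (orange). Rgn, Slc23a2 and Gulo lie within 0.38 of the line at log2 ratios of -1.31, -0.12 and 1.61, and Cyb561 lies below it at 1.57.

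The median log2 ratio was -1.91 over the 1384 tested genes with a GC content under 42%, a class that holds Rgn. It was 0.03 over the 2362 genes from 48% to 51%, with Slc23a2, 1.16 over the 2267 genes from 51% to 54%, with Gulo, and 3.25 over the 3992 genes from 54% upward, with Cyb561. With this trend removed, the log2 ratio of Gulo was 0.00 (95% interval -0.66 to 0.77) and that of Rgn was 0.38 (-0.23 to 0.96), neither called, and that of Slc23a2 was -0.14 (-0.20 to -0.09), which remained under the fold minimum. Cyb561 turned to lower in replicate 2, at -2.05 (-2.16 to -1.94; exact binomial test, adjusted p = 1.32e-219). With the GC content of its most abundant transcript (55.8%) in place of the mean over all its transcripts (57.8%), the value was -1.12, still called lower. After removal of the trend 13.6% of genes were called higher and 12.5% lower (26.1% in either direction), and of the 4 genes none was called higher and 1 was called lower.

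Compared with genes of like GC content, within 1 percentage point, Cyb561 had a log2 ratio above 11.4% of 1088 genes, whose quartiles were 2.56 and 4.91. With the GC content of the most abundant transcript it was above 21.4% of 1395 genes. Gulo was above 44.7% of 1594 such genes, Slc23a2 above 41.8% of 1601 and Rgn above 80.9% of 953. With the GC content over all transcripts, the 3 genes other than Cyb561 lay nearer to the middle of their GC class. Rgn still stood above its upper quartile of -1.40. By the most abundant transcript, Rgn was above 78.3% of 949 genes, about as far from the middle as Cyb561.

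**Figure D4:**
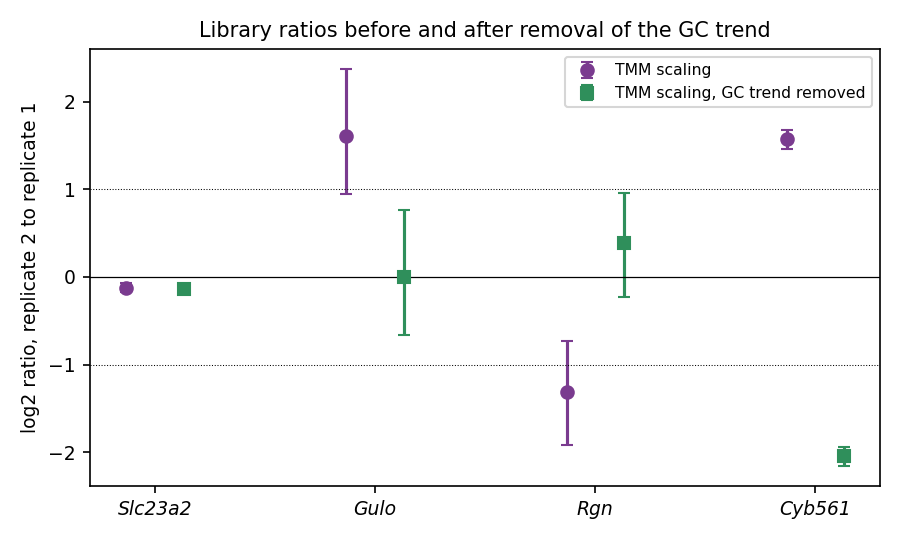
Log2 ratio of scaled counts, replicate 2 to replicate 1, with 95% exact intervals for the 4 genes with counts, under TMM scaling (circles) and with the GC trend removed (squares); dotted lines mark the 2-fold minimum. Gulo and Rgn move to 0.00 and 0.38, Slc23a2 stays near 0, and Cyb561 goes to -2.05.

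Enzymes that take the electrons were set beside Cyb561. Dbh, dopamine β-hydroxylase, which makes noradrenaline in the granule, stood at 218 TPM in replicate 2 and 2.98 TPM in replicate 1. Pam, which amidates peptides and also uses ascorbate, stood at 190 TPM in replicate 2 and 95.2 TPM in replicate 1. The order of Cyb561 and Dbh changed between the libraries, with Cyb561 at 0.581 times Dbh in replicate 2 and at 3.40 times in replicate 1. Cyb561 was at 0.665 times Pam in replicate 2 and at 0.106 times in replicate 1, and at 0.0745 and 0.389 times Chga, the granule protein chromogranin A. Dbh (55.5% GC) was 20.3-fold and Chga (57.7% GC) 18.1-fold higher in replicate 2. With the GC trend removed Dbh was still higher, at a log2 ratio of 1.66, and Chga, at 0.59, and Pam, at 0.33, were not called. These ratios describe each library.

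Moxd1, a relative of Dbh, had 0 counts in replicate 2 and 7 in replicate 1, and Moxd2 had 0 in both. Of the 4 copper monooxygenases, 2 were detected and tested, and Dbh was the 1 called higher. Other medulla markers of the list were Th, the first enzyme of catecholamine synthesis, at 363 TPM in replicate 2 and 6.89 TPM in replicate 1 and Ddc at 36.3 and 13.3 TPM. Pnmt, which makes adrenaline, stood at 357 TPM in replicate 2 and was listed at 0 in replicate 1. Of the 7 medulla markers 4 were called higher in replicate 2 and none lower, beside 36.5% and 27.8% of all tested genes. These 4 lie in the GC class from 54% upward, where 89.1% of genes were called higher. After removal of the GC trend the shares of all genes were 13.6% and 12.5%. With the GC trend removed Th, Dbh and Pnmt were still called higher, while Cyb561 was called lower. Th, at 1.48, went to 0.86 and was no longer called with the GC content of its most abundant transcript. Differences between these genes, and the part of the medulla in the Cyb561 counts, were not tested.

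Cyb561 exceeded each of the 6 genes of the b561 family list in both libraries. Cyb561d2 stood at 16.9 TPM in replicate 2 and 0.80 TPM in replicate 1, Cyb561a3, a lysosomal form, at 10.2 and 0.21 TPM, and Cyb561d1 at 5.38 and 0.61 TPM. Frrs1, a ferric reductase, stood at 7.01 TPM in replicate 2 and 2.29 TPM in replicate 1, and was the only 1 of the 6 detected. Cybrd1, the duodenal cytochrome b that reduces dietary iron, and Frrs1l stayed under 0.5 TPM in both libraries. Cyb561 was at 12.4 times Cyb561a3 in replicate 2 and at 48.2 times in replicate 1, and at 7.48 and 12.6 times Cyb561d2. Of the 6 genes 3 were called higher in replicate 2 and 2 lower, with a median log2 ratio of 0.49, against 0.10 over all genes. Among all tested genes 36.5% were higher and 27.8% lower, and 13.6% and 12.5% with the GC trend removed. With the GC trend removed Cyb561a3 was higher, at 2.19, Cybrd1 was lower, at -1.17, and the other 4 were not called.

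Among other carriers, Slc23a3, the third gene of the family, had 0 counts in both libraries. The listed glucose transporter genes, of a family whose proteins also pass dehydroascorbate, stood below Slc23a2 in both libraries. Slc2a4 stood at 24.6 TPM in replicate 2 and 0.43 TPM in replicate 1, and Slc2a1 at 17.7 and 1.01 TPM. Slc2a8 stood at 14.3 and 0.04 TPM and Slc2a3 at 5.48 and 0.93 TPM. In replicate 2, Slc2a4 was above 79.0% and Slc2a1 above 73.2% of nuclear protein-coding genes, against 51.6% and 59.2% in replicate 1. Slc2a1 was the only 1 of the 7 genes detected. Slc23a2 exceeded Slc2a1 by 4.39 times in replicate 2 and 22.9 times in replicate 1. Of 5 tested, 4 were called higher in replicate 2 and none lower (median log2 ratio 2.28), beside 36.5% and 27.8% of all tested genes. With the GC trend removed only Slc2a4 was called higher, at 1.07, beside 13.6% of all genes. Slc2a4 is also an adipocyte gene: adipocyte markers summed to 3272 TPM in replicate 2 and 465.6 TPM in replicate 1 over 7 genes. Of these, 3 were called higher and none lower, beside 36.5% and 27.8% of all tested genes. Once the GC trend was removed, 5 of the 7 were called higher and none lower, beside 13.6% and 12.5% of all genes. The part of adipocytes in the Slc2a4 counts was not tested.

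The listed genes of the route from glucose to gulonate, Ugp2, Ugdh and Akr1a1, stood far above Gulo and Rgn. Other steps of this route were not in the list. Akr1a1, the reductase that makes gulonate from glucuronate, stood at 738 TPM in replicate 2 and 165 TPM in replicate 1, and Akr1b3, aldose reductase, at 258 and 45.9 TPM. Ugdh, which makes UDP-glucuronate, stood at 50.8 TPM in replicate 2 and 52.9 TPM in replicate 1, and Ugp2, which makes UDP-glucose, at 49.4 and 53.4 TPM. Miox, which is also on the list of kidney markers, was listed at 0 in both. Of 6 tested, 4 were called higher in replicate 2 and 2 lower (Ugp2 at -1.99 and Ugdh at -1.10), beside 36.5% and 27.8% of all tested genes. After removal of the GC trend these shares of all genes were 13.6% and 12.5%. With the GC trend removed 4 were higher and none lower, namely Cryl1 at 1.24, Dcxr at 2.12, Akr1a1 at 1.16, which went to -0.36 with the GC content of its most abundant transcript, and Akr1b3 at 1.04, which went to 0.46.

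Enzymes that return oxidised ascorbate to its reduced form were detected in 9 of 10 cases. Cyb5b, cytochrome b5 of the outer mitochondrial membrane, stood at 532 TPM in replicate 2 and 218 TPM in replicate 1. Cyb5a stood at 317 and 78.7 TPM, its reductase Cyb5r3 at 305 and 24.0 TPM, and P4hb, protein disulfide isomerase, at 267 and 31.6 TPM. Gsto2, a dehydroascorbate reductase, was lowest at 0.55 and 0.13 TPM. Of 9 tested, 3 were called higher in replicate 2 and none lower (median log2 ratio 0.37). Among all tested genes 36.5% were higher and 27.8% lower, and 13.6% and 12.5% with the GC trend removed. With the GC trend removed Glrx was higher, at 1.28, and Cyb5r3 had turned to lower, at -1.18.

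Granule genes were all detected, 12 of 12, with Chgb at 1854 TPM in replicate 2 and 303 TPM in replicate 1, Chga at 1700 and 26.0 TPM, Scg2 at 993 and 396 TPM and Atp6v0c, of the proton pump, at 363 and 13.5 TPM. Slc18a2, a vesicular amine carrier, had the lowest mean, at 7.63 TPM in replicate 2 and 6.94 TPM in replicate 1. Rescaled over nuclear genes, Slc18a2 stood at 12.4 TPM in replicate 2 and 39.7 TPM in replicate 1. Its log2 ratio was -1.71, called lower, and -0.65, not called, with the GC trend removed. Of the 12, 4 were called higher in replicate 2 and 3 lower (median log2 ratio 0.17), beside 36.5% and 27.8% of all tested genes. With the GC trend removed none was higher and Chgb was lower, at -1.06, beside 13.6% and 12.5% of all genes. The call of Chgb was lost, at -0.97, with the GC content of its most abundant transcript.

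Dioxygenases that need ascorbate to keep their iron reduced were measured as a further list, with 17 of 18 genes matched by symbol and 10 detected. Plod2, a lysyl hydroxylase of collagen, led at 168 TPM in replicate 2 and 169 TPM in replicate 1. Rescaled over nuclear genes, Plod2 stood at 272 TPM in replicate 2 and 968 TPM in replicate 1. Its log2 ratio was -1.91, called lower, and -0.37, not called, with the GC trend removed. Egln2, an oxygen-sensing prolyl hydroxylase, stood at 49.0 and 1.06 TPM, P4ha1, a collagen prolyl hydroxylase, at 30.6 and 10.3 TPM and Plod3 at 36.0 and 0.31 TPM, while Bbox1, of carnitine synthesis, was listed at 0 in both. Of 15 tested, 7 were called higher in replicate 2 and 2 lower (median log2 ratio 0.20). Among all tested genes 36.5% were higher and 27.8% lower, and 13.6% and 12.5% with the GC trend removed. With the GC trend removed P4ha2, Plod1 and Plod3 were higher and Egln1 (-3.06), Egln3 (-1.22) and Tet3 (-2.60) were lower. With the GC content of the most abundant transcript P4ha2, at 0.81, and Plod1, at 0.80, were no longer called, and P3h2, at -1.23, was called lower.

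**Figure D5:**
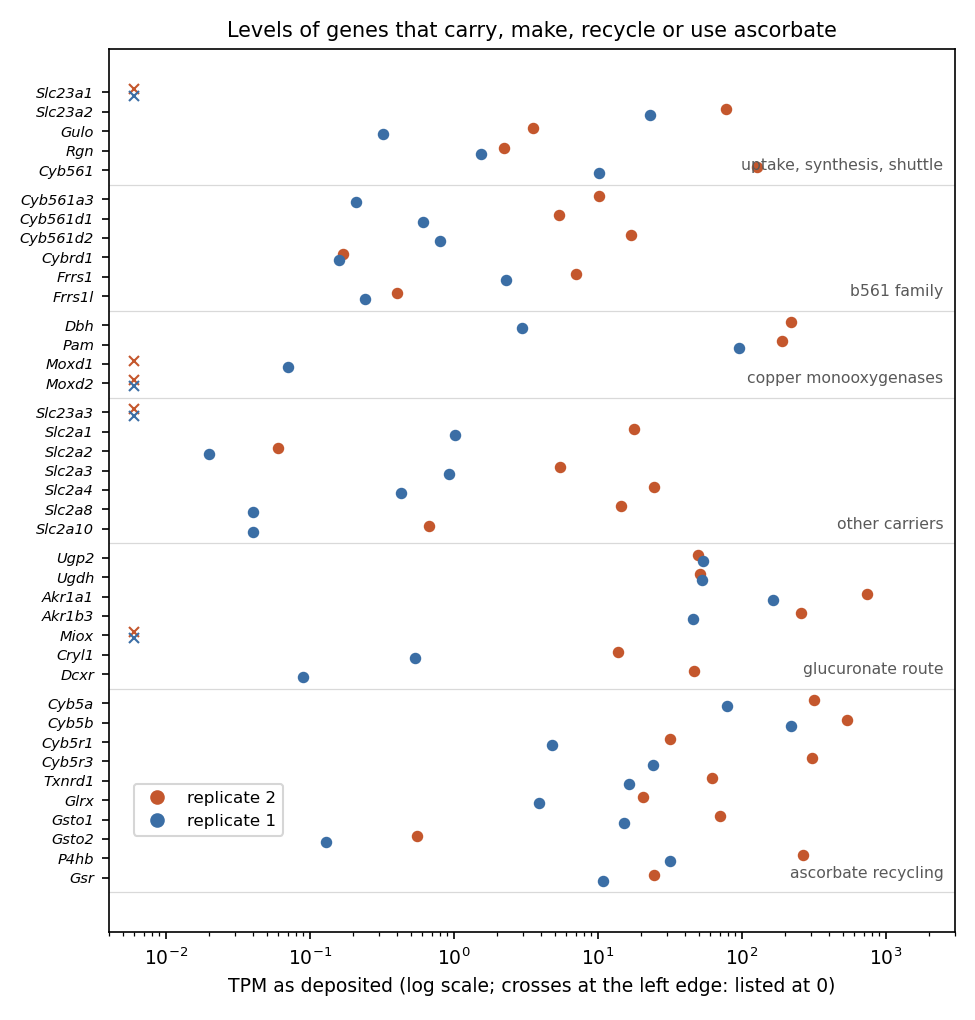
TPM as deposited (log axis) of the 5 genes and of the genes that carry, make, recycle or use ascorbate, in replicate 2 (orange) and replicate 1 (blue); crosses mark genes listed at 0. Slc23a2 stands above the other carriers and Cyb561 above the genes of the b561 family list, and Gulo and Rgn stand far below Akr1a1 and Ugdh.

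The genes nearest in level were found by the Euclidean distance of log2 rescaled TPM (with 0.1 added) over the 2 libraries, among detected nuclear protein-coding genes. For Slc23a2 these were Trpc4ap (distance 0.02), Acat1 (0.0241) and C1d (0.0275), with GC contents from 39% to 52.3%. For Rgn they were Cdkl3, Hyls1 (0.0305 each) and Dnah7b (0.0533). For Cyb561 they were farther away: Prkaca at 0.0785 (131 TPM in replicate 2 and 9.73 TPM in replicate 1), Nisch at 0.161 and Entpd4 at 0.17. With 2 libraries of 1 sample, this likeness is one of level and library ratio only. No near-identical copy of any of the 5 genes (95% identity over 50% of a transcript) was found among the annotated transcripts.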

How the data were processed

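Expected counts, estimated fragments per gene or transcript that need not be whole, and TPM were deposited for each library, named so per the file headers. FPKM, the posterior mean TPM with its interval (treated as a score) and each transcript's percent within its gene were also deposited. Per the deposited notes, reads were placed on mm10 with annotation M4; aligner and counting program were not given in the sources used. Coordinates, transcripts and GC content came from GENCODE M21 (GRCm38).

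Expected counts were rounded. The 14358 genes whose counts sum to 20 or more entered the fit. Library sizes came from TMM (edgeR 4.0.16, R 4.3.3). Each gene's division between the libraries was compared by an exact binomial test, two-sided, with Benjamini-Hochberg adjustment across those genes. A call needed both an adjusted p below 0.05 and a ratio of 2 or more either way. Log2 ratios carry a prior count of 0.5. P-values measure technical differences between 2 libraries. GC trends were running medians. Copies were sought with BLAST 2.17.0. Intervals and the floor of 3 counts cover counting error only. The deposited intervals surround the posterior mean, so a TPM can lie outside them. Named genes were all 5 members, all b561 and copper monooxygenase genes, the 4 highest and the lowest of each other list, the pairs and the 3 nearest genes, with others named where few calls are counted, these chosen after their values were seen. Members and lists were chosen with earlier results of these data known. Whether counting used strand is not given. The fit was tested on simulated data. Results of 1 marker gene are not reported here.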

Additional observations from a re-analysis of the deposited data

How the results depend on the processing

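Total-count scaling and removal of the GC trend both changed calls. Of the 5 genes, those called higher in replicate 2 were 0 in place of 2 with either GC measure and with GC and length removed together, the last and the measure by most abundant transcript being chosen after seeing the data. Over the 7 pathway lists 26 genes were higher, against 11, 7 and 6 under these 3 settings. Over all genes 5235 were higher and 3991 lower, against 1947 and 1779, 1729 and 1659, and 1656 and 1922. The log2 ratio of Cyb561 reversed to -2.05, -1.12 and -2.11, that of Rgn to 0.38, 0.31 and 0.23, and that of Gulo went to 0.00, -0.033 and -0.040. Slc23a2 reversed to 0.092 and 0.10 under the settings chosen after seeing the data, to 0.36 with the length trend removed and to 1.02 under total-count scaling, where it was called higher and none of the 5 genes and 0 of the list genes were lower, against 1 and 9. Under that scaling 7776 genes in all were higher and 569 lower. Without the fold minimum 2 and 19 were lower. Median-of-ratios factors, TMM without mitochondrial genes, no count minimum and a prior count of 2 kept each direction and call of the 4 genes. The cause of the GC trend, and of the distance of Cyb561 from it, was not tested.

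Mean TPM moved by more than its SD for Slc23a2 (129) and Rgn (6.17) after rescaling over nuclear genes, and for Slc23a1 with the posterior mean (0.355). The mean share of Slc23a2-201 was 99.7% by counts, against 97.5% by TPM. Detection of 3 genes gave 2 to 4 under other minimums and units. No paired analysis was possible because both libraries belong to 1 group. With 92 counts in replicate 2 and 22 in replicate 1, Gulo is measured least precisely in replicate 1.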
